A study of Mus musculus with 20 samples.

Results

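The 9 genes described here encode the signalling parts of the T cell receptor (TCR) complex and its first relay: the CD3 chains Cd3d, Cd3e, Cd3g and Cd247, the kinases Lck and Zap70, and the adaptors Lat, Lcp2 and Themis. They were chosen by symbol, and all 9 were present in both count tables, which list 10696 genes for IL25R+ cells and 10580 for ST2+ cells, with 9608 in common. The cells were group 2 innate lymphoid cells (ILC2), lymphocytes that make type 2 cytokines and express no antigen receptor of their own, sorted from the thymus of young male WT mice by the receptor for IL-25 (IL25R+) or by ST2, which binds IL-33 (ST2+). All of them were kept in culture with IL-7 at 10 ng/mL for 12 h, and after a change of medium for another 24 h. IL25R+ cells then received PBS vehicle, rIL-25 at 10 ng/mL, rIL-33 at 10 ng/mL or both cytokines for 24 h, with 3 libraries in each of the 4 groups. ST2+ cells received PBS vehicle or rIL-33 at 10 ng/mL for 24 h, with 4 libraries in each of the 2 groups. Bulk MARS-seq, which reads transcripts near their 3' end, gave the counts, so levels are compared here for 1 gene across libraries. The exception is lists of markers, which are summed over genes, with the gene that makes up most of a sum named. The labels do not say whether the replicates came from separate mice, and p-values therefore measure the spread between these samples, which may be technical.

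In T cells, the antigen receptor has no enzyme of its own. Its CD3 chains carry short tyrosine motifs that the Src family kinase Lck phosphorylates, and the kinase Zap70 binds to those motifs and phosphorylates the scaffold proteins Lat and Lcp2 (also called SLP-76), from which calcium, protein kinase C and Ras signals branch. Themis, a thymocyte protein that binds the adaptor Grb2, tunes the strength of this signal during selection in the thymus. ILC2 arise from lymphoid progenitors related to those of T cells, and transcripts of some of these genes are found in innate lymphoid cells without a surface receptor.

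Cd3d, Cd3e and Cd3g lie in 1 cluster on chromosome 9 of mouse build mm10 (GRCm38): Cd3d at chr9:44981786-44987339 on the plus strand, Cd3g at chr9:44969572-44980431 and Cd3e at chr9:44998740-45009627, both on the minus strand. Cd3d and Cd3g point away from each other, with 1355 bases between their starts. Cd247 lies at chr1:165788681-165877277, Lck at chr4:129548344-129573641, Lat at chr7:126363824-126369570, Zap70 at chr1:36761798-36782818, Themis at chr10:28668360-28883818 and Lcp2 at chr11:34046920-34092295. All are protein-coding genes in GENCODE. Cd247 overlaps Pou2f1 and Lcp2 overlaps 4930469K13Rik on the opposite strand, and a part of Cd3e has an antisense gene. The use of strand in counting is not given in the sources used here, so reads of such partners cannot be told apart. The 250 bases before the start of 4 genes are shown from RefSeq (GRCm38.p6), 5′ to 3′ on the strand of the gene. Cd3d and Cd3g are the divergent neighbours that both fell with the 2 cytokines together, and Zap70 and Themis stood at opposite ends of the contrast between the populations. Capitals mark the core of an ETS site, GGAA or TTCC on the other strand.
Cd3d: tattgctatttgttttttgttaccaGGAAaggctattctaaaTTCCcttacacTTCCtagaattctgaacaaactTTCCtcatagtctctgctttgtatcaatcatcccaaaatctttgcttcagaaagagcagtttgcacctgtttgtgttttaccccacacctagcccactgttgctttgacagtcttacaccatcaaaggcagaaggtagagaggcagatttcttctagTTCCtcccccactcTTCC
Cd3g: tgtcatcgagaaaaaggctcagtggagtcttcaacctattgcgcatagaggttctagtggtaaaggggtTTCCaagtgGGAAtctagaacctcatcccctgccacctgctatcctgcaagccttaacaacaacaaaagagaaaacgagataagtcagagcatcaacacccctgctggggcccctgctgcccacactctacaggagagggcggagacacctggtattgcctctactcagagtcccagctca
Zap70: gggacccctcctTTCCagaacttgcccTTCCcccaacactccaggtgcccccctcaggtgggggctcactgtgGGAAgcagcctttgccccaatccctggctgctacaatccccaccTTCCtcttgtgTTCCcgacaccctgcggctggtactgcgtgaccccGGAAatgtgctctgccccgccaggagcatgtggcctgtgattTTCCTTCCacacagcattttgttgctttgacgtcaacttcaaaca
Themis: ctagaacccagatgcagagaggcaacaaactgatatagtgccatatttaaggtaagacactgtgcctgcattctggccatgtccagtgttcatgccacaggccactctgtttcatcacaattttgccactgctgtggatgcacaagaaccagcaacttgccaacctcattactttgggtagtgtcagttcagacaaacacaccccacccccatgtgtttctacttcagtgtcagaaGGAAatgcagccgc
These windows lie at chr9:44981536-44981785, chr9:44980432-44980681, chr1:36761548-36761797 and chr10:28668110-28668359, and hold 6, 2, 8 and 1 matches to the ETS core. All 9 genes had a promoter in the RefSeq table, and all 9 held that core, as did 93.4% of the 32851 promoters of the same length. The GATA core (GATA, or TATC on the other strand) was present in 5 of the 9 against 53.6% of all promoters. The TCF/LEF core (CTTTG, or CAAAG) was in 5 of the 9 against 48.6%, and the E-box (CANNTG) in 8 of the 9 against 66.2%. The RUNX core (TGTGGT, or ACCACA) was found in Lck alone among the 9, against 14% of all promoters. These matches describe letters in a window and are not binding sites.

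Total counts per library were 834913 to 1880906 in IL25R+ cells and 537999 to 5453444 in ST2+ cells, where replicates 1 and 4 of both groups were the deeper ones. Replicates varied less in IL25R+ cells (biological coefficient of variation 0.128, by edgeR) than in ST2+ cells (0.328), so the same change was harder to call in ST2+ cells. Some libraries stood apart. IL25R+ libraries divided by Glycam1, which was above 10 CPM in all vehicle libraries, all libraries with both cytokines and IL-33 library 3, and below it in the rest. IL-33 library 1 of IL25R+ cells held Aire, a regulator typical of thymic epithelium, at 10823 CPM, against at most 33.2 CPM in the others. In ST2+ cells IL-33 library 2 had a summed level of listed ILC2 markers of 4322 CPM, against up to 18986 CPM in its group.

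The ILC2 label was checked against 14 listed markers, 13 of them in both tables. Their summed level with vehicle was 3712 to 3776 CPM in IL25R+ cells and 3693 to 4937 CPM in ST2+ cells, and in IL25R+ cells most of it was Thy1, which T cells also express, at 3172 to 3253 CPM, against 680 to 1342 CPM in ST2+ cells. Of the 13, 8 were higher in every ST2+ vehicle library, 3 (Thy1, Il2ra and Bcl11b) in every IL25R+ vehicle library, and 2 overlapped. The 8 were Gata3, Id2, Il1rl1, Il17rb, Klrg1, Il13, Il5 and Icos. Transcripts of Il17rb, which encodes a chain of the receptor for IL-25, were thus higher in ST2+ cells and not in the cells sorted by that receptor. Among the 8, Gata3, the lineage's defining transcription factor, was at 105 to 134 CPM in IL25R+ cells and 459 to 791 CPM in ST2+ cells, and Il1rl1, which encodes ST2, was at 6.87 to 11.2 and at 171 to 507 CPM. Klrg1, a receptor on mature ILC2, reached at most 1.20 CPM in IL25R+ vehicle libraries and was at 50.8 to 84.1 CPM in those of ST2+ cells. A list of 15 T cell and thymocyte markers was also measured, of which 11 were in the table of IL25R+ cells and 8 in that of ST2+ cells. TCR constant chains, the most direct T cell markers, were in neither count table under the symbols listed and so could not be analysed. Of the receptor genes only the co-receptors Cd4, Cd8a and Cd8b1 were. In IL25R+ vehicle libraries the summed level of the listed markers was 1174 to 1221 CPM, and most of it was Dntt, the DNA polymerase that adds bases at rearranging receptor genes, at 653 to 700.2 CPM. Cd8b1, a chain of the CD8 co-receptor, was at 159 to 164 CPM, Cd8a at 58.7 to 69.7 CPM and Cd4 at 2.95 to 8.43 CPM in the same libraries. Of the 11 listed markers in the table of IL25R+ cells, 6 passed the filter on low counts. Cd8a, Cd8b1, Dntt, Ccr7 and Ccr9 were among the 6, while Cd4, Cd5, Cd6 and Foxp3 did not pass, so the list was high in part and not as a whole. Rag1, Rag2 and Ccr9, also listed, were in the table of IL25R+ cells and not in that of ST2+ cells. In ST2+ vehicle libraries the summed level was 51.5 to 165 CPM, with Dntt at 9.87 to 63.2 CPM and Cd8b1 at 8.98 to 57.6 CPM. In bulk RNA, fewer cells of a type and less RNA per cell cannot be told apart.

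With vehicle, 7 of the 9 genes were higher in every IL25R+ library than in every ST2+ library, and so were 43% of the 8964 genes of the fit of all libraries. The count by itself therefore sets the 9 little apart, and the sizes of the gaps differed widely. Themis was at 204, 160.5 and 168 CPM in the 3 IL25R+ libraries and at 2.24, 3.72, 8.43 and 0.731 CPM in the 4 ST2+ libraries. This was the widest gap of the 9, with a ratio of means of 46.9, and the ST2+ values rest on 2 to 5 counts each. Cd3d, the delta chain, was at 179, 234 and 209 CPM in IL25R+ cells and at 14.02, 7.43, 13.5 and 5.12 CPM in ST2+ cells. The ratio of means was 20.7 for Cd3d, 9.62 for Cd247, which encodes the zeta chain, 6.05 for Cd3e, 5.67 for Lck, 4.39 for Cd3g and 2.75 for Lat. Zap70 went the other way. It was at 27.4, 25.2 and 39.3 CPM in IL25R+ cells and at 425, 325, 251 and 486 CPM in ST2+ cells, a ratio of means of 12.1 in favour of ST2+ cells, and 16.4% of the 8964 genes were higher in every ST2+ library. With TMM factors of the fit of all libraries in place of library totals, a scaling tried after seeing the data, the same 7 genes and Zap70 stood apart, against 27.5% and 28.2% of genes. Lcp2 was at 11.2, 14.4 and 5.89 CPM in IL25R+ cells and at 11.8, 18.6, 8.43 and 6.21 CPM in ST2+ cells, and its ranges overlapped. The contrast was therefore not of 1 direction: receptor chains, Lck, Lat and Themis had their higher levels in IL25R+ cells and the kinase Zap70 in ST2+ cells. The populations are in separate tables, so population and table cannot be told apart and no test was made of these levels. The listed T cell and thymocyte markers were also higher in every IL25R+ vehicle library by their sum, and their part in the contrast was not tested.

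**Figure D1:**
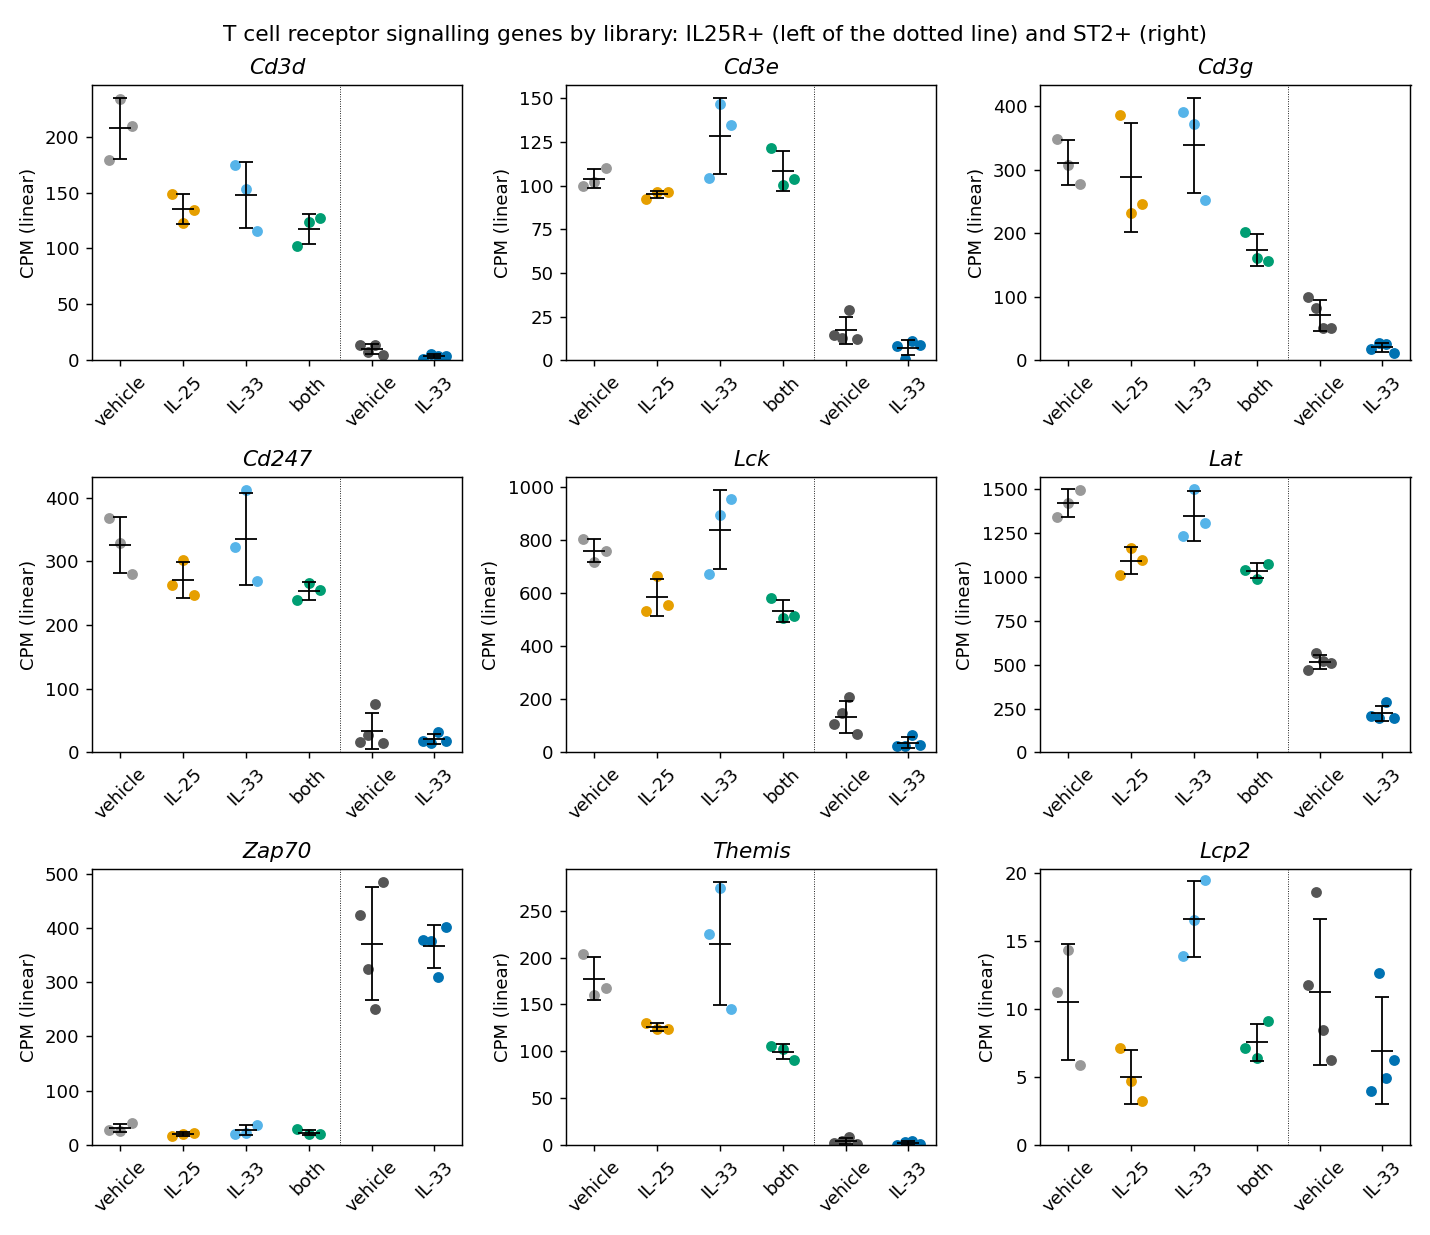
Level of each of the 9 genes in every library, in CPM on a linear axis from 0, with points for libraries and black bars for the mean ± SD of the 3 (IL25R+, left of the dotted line) or 4 (ST2+, right) libraries of a group. Zap70 is the one panel in which the ST2+ groups stand above the IL25R+ groups, at 251 to 486 CPM with vehicle.

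The first comparison asked how IL-25, the ligand of the receptor used to sort the IL25R+ cells, changed these genes. With edgeR's quasi-likelihood test, 0 of the 9 passed at an adjusted p under 0.05, whereas 15% of the 8850 genes tested did, and 5.9% were lower. At an unadjusted p under 0.05 there were 2, Cd3d and Lcp2. DESeq2 and limma-voom also called 0 of the 9. Cd3d was at 179, 234 and 209 CPM with vehicle and at 149, 123 and 134 CPM with IL-25, with a log2 fold change of -0.43 ± 0.158 (SE) and an adjusted p of 0.069. The Cd3d groups did not overlap. Themis, at 204, 160.5 and 168 CPM with vehicle, was at 131, 123 and 124 CPM with IL-25 (log2 fold change -0.32 ± 0.164, edgeR adjusted p 0.198). By CPM, 6 of the 9 were lower in every IL-25 library than in every vehicle library, namely Cd3d, Cd3e, Lck, Lat, Zap70 and Themis, and so were 28.7% of all genes tested. CPM is scaled to library totals alone, while the test adds the trimmed mean of M-values (TMM) scaling, and the 2 differ here: TMM factors were 0.919 to 0.946 in IL-25 libraries and 1.03 to 1.08 in vehicle libraries. With library totals alone the median log2 fold change of all genes was -0.206, against -0.025 with TMM, and 4 of the 9 passed, all lower (Cd3d, Lck, Lat and Themis). With that scaling 1719 of the 8850 genes passed, against 1325 with TMM, and the share of higher genes among all calls went from 60.6% to 26.3%. Cd3d passed at an adjusted p of 0.0482 without vehicle library 1, at 0.0405 or 0.0302 when library 1 or 3 of the IL-33 group was left out, and at 0.0197 in the compared groups alone. In the fit with the Glycam1 side as a term 2 of the 9 passed as lower, Cd3d (log2 fold change -0.94, edgeR adjusted p 0.0238) and Themis (-1.12, edgeR adjusted p 0.00183), as 645 of the 8850 genes passed in either direction. Vehicle and IL-25 libraries lay wholly on opposite sides, and only the IL-33 group had libraries on both. These values therefore rest on IL-33 library 3 and do not separate treatment from side. In the main fit Dntt did pass, and fell from 676 ± 23.8 to 326 ± 23.2 CPM (SD, n = 3; log2 fold change -0.87 ± 0.128, edgeR adjusted p 6.36e-05).

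IL-33 alone left the 9 genes without a call in IL25R+ cells, where 0.237% of genes passed in all and 0.0565% as lower. At an unadjusted p under 0.05 edgeR gave 2 of the 9, Cd3d and Cd3e, and DESeq2 and limma-voom called 0. Cd3d was at 175, 153 and 116 CPM with IL-33, below the 179, 234 and 209 CPM of the vehicle libraries, and was the single one of the 9 without overlap, as were 6.81% of all genes tested in that direction. Its log2 fold change was -0.47 ± 0.159 with an edgeR adjusted p of 0.209. Themis was spread widely, at 225, 275 and 145 CPM in IL-33 libraries 1, 2 and 3. Libraries 1 and 2 lay above all vehicle libraries and library 3 below them. Without IL-33 library 3, the one on the Glycam1 side of the vehicle libraries, the log2 fold change of Themis was 0.48 with an edgeR adjusted p of 0.0425, against 0.27 ± 0.161 and 0.53 with it. It turned to -0.31 (edgeR adjusted p 0.368) in the fit with the Glycam1 side as a term, where Cd3d passed as lower (-0.84, edgeR adjusted p 0.0337). Lck, at 673, 896 and 955 CPM, overlapped its vehicle range of 717 to 804 CPM. Dntt did not pass either, at 676 ± 23.8 with vehicle and 749.6 ± 157 CPM with IL-33 (SD, n = 3).

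Both cytokines together lowered 5 of the 9 genes against vehicle: the CD3 chains Cd3d and Cd3g, the kinase Lck, the scaffold Lat and Themis. Over all 8850 genes tested, 15.6% passed and 6.67% passed as lower. Cd3d was at 102, 123 and 127 CPM with both cytokines against 179, 234 and 209 CPM with vehicle, a log2 fold change of -0.70 ± 0.159 (edgeR adjusted p 0.00433). Cd3g, the gamma chain, was at 348, 308 and 277 CPM with vehicle and at 202, 162 and 156 CPM with both. Its log2 fold change was -0.74 ± 0.185 (edgeR adjusted p 0.00835). Themis was at 106, 103 and 90.2 CPM with both, below its 204, 160.5 and 168 CPM with vehicle, a log2 fold change of -0.73 ± 0.167 (edgeR adjusted p 0.00428). In each of these 3 genes the highest library with both cytokines was below the lowest vehicle library. Lck and Lat moved less. Lck was at 804, 717 and 762 CPM with vehicle and at 581, 508 and 513 CPM with both (log2 fold change -0.40 ± 0.123, edgeR adjusted p 0.0281). Lat was at 1339, 1422 and 1497 CPM with vehicle and at 1039.6, 989 and 1075 CPM with both (log2 fold change -0.35 ± 0.107, edgeR adjusted p 0.0285). These 2 groups also did not overlap.

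The other 4 genes did not pass against vehicle. Cd3e, the epsilon chain, was at 99.8, 102 and 110.0 CPM with vehicle and at 122, 100.5 and 103 CPM with both cytokines, so that the groups overlapped (log2 fold change 0.17 ± 0.133). Cd247 was at 368, 328 and 279.9 CPM with vehicle and at 239, 266 and 255 CPM with both, without overlap, and its log2 fold change was -0.25 ± 0.139 with an edgeR adjusted p of 0.242. Zap70 (log2 fold change -0.36 ± 0.263) and Lcp2 (-0.35 ± 0.382) had low counts, 21 to 40 and 6 to 16 per library in the 2 groups. In all, 6 of the 9 were lower in every library with both cytokines, as were 24.1% of all genes tested. The median log2 fold change of the 9 was -0.36, against -0.029 over all genes tested. Cd3d and Themis passed under every alternative run, with adjusted p up to 0.0329 and 0.0412. Lck and Lat were the weaker calls, with adjusted p of up to 0.127 and 0.137: Lck missed the threshold without vehicle library 1, 2 or 3 and without library 2 or 3 with both cytokines, and Lat without vehicle library 2 or 3 and without any 1 of the libraries with both. Cd3g had an adjusted p of 0.055 without vehicle library 1. The number of calls was 3 without any 1 of these libraries other than library 1 with both cytokines. Dntt fell beside them, from 676 ± 23.8 to 328 ± 26.5 CPM (SD, n = 3; log2 fold change -0.93 ± 0.129, edgeR adjusted p 2.63e-05), while Cd8b1 (-0.25 ± 0.142) and Cd8a (-0.31 ± 0.195) did not pass and Ccr7, a chemokine receptor of mature thymocytes and naive T cells, rose (0.47 ± 0.118, edgeR adjusted p 0.00801). The part of T cells or thymocytes in the lower levels was not tested.

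**Figure D2:**
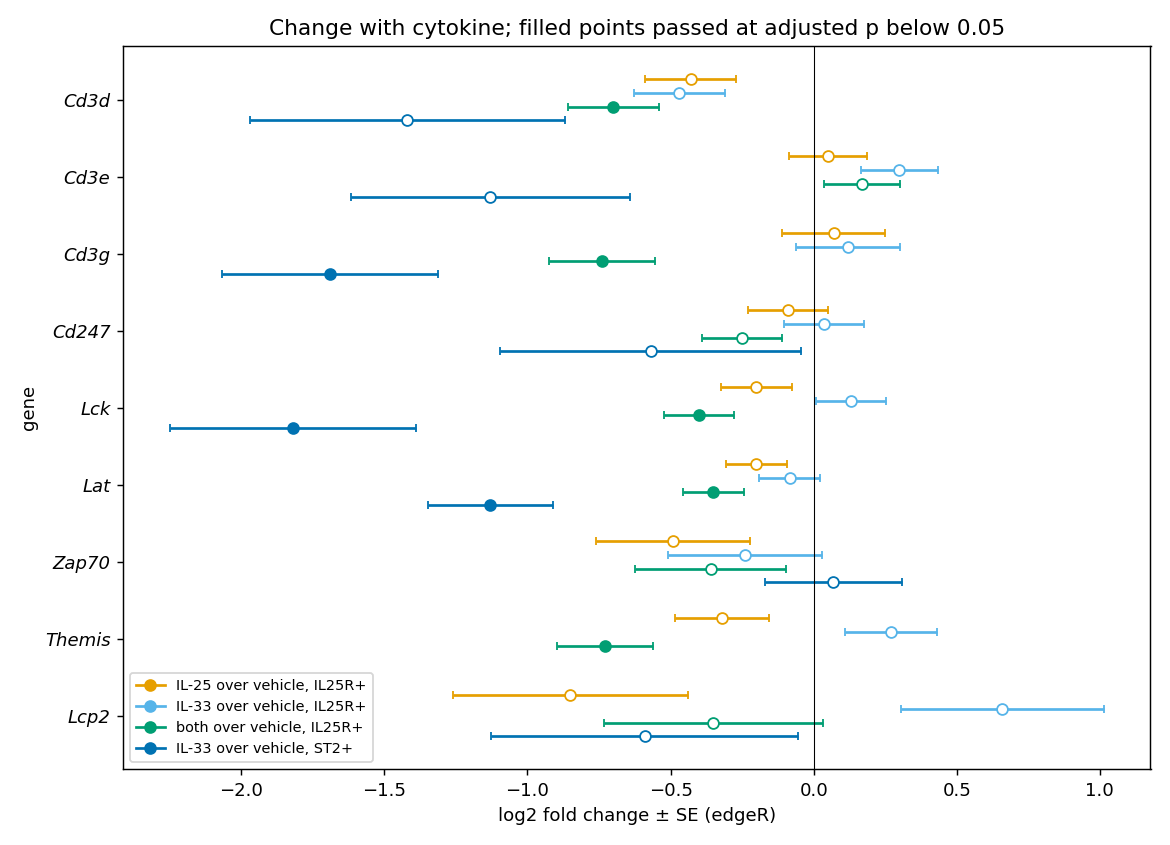
The log2 fold change ± SE of the 9 genes for 4 comparisons with vehicle, with filled points for an edgeR adjusted p under 0.05 and open points otherwise. Cd3d, Cd3g, Lck, Lat and Themis are filled for both cytokines in IL25R+ cells, and Cd3g, Lck and Lat for IL-33 in ST2+ cells, where Themis was not tested.

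Comparing both cytokines with each one alone separated the genes further. Against IL-25 alone, 1 of the 9 passed, against 3.14% of all genes tested and 1.79% lower: Cd3g, at 386, 232 and 246 CPM with IL-25 and at 202, 162 and 156 CPM with both, had a log2 fold change of -0.81 ± 0.183 (edgeR adjusted p 0.016). IL-25 library 1 was the high one for Cd3g, and without it the log2 fold change was -0.53 with an adjusted p of 0.134. The call was also missed without library 2 (0.0938) or 3 (0.0767) with both cytokines. With the Glycam1 side as a term the Cd3g change was -0.20 with an adjusted p of 0.852. These groups also lay wholly on opposite sides, so that value rests on IL-33 library 3 and does not separate treatment from side. Cd3g and Themis were lower in every library with both cytokines, as were 9.44% of genes tested. Themis, at 131, 123 and 124 CPM and at 106, 103 and 90.2 CPM, had a log2 fold change of -0.41 ± 0.166 and an adjusted p of 0.18, which was 0.0337 without IL-33 library 3. In Cd3e every library with both cytokines was above every IL-25 library, as in 17.6% of genes tested, and the log2 fold change of 0.12 ± 0.129 did not pass.

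Against IL-33 alone, 4 of the 9 passed as lower with both cytokines, against 17.2% of all genes tested and 7.88% lower. Themis showed the largest of these changes together with Lcp2: it was at 225, 275 and 145 CPM with IL-33 and at 106, 103 and 90.2 CPM with both, a log2 fold change of -1.01 ± 0.163 (edgeR adjusted p 0.00019). Cd3g was at 391, 371 and 252 CPM with IL-33 against 202, 162 and 156 CPM (-0.86 ± 0.184, edgeR adjusted p 0.00239). Lck was at 673, 896 and 955 CPM with IL-33 against 581, 508 and 513 CPM (-0.54 ± 0.123, edgeR adjusted p 0.00414). None of these groups overlapped. In all, 6 of the 9 genes were lower in every library with both cytokines than in every IL-33 library, as were 21.1% of all genes tested. Lcp2, the SLP-76 scaffold, was at 13.9, 16.5 and 19.5 CPM with IL-33 and at 7.15, 6.38 and 9.08 CPM with both, which is 19 to 21 counts against 10 to 15. Its log2 fold change of -1.01 ± 0.346 had an edgeR adjusted p of 0.0472 and was the least certain of the 4, with 0.12 by DESeq2, 0.0658 with the replicate block and up to 0.166 without 1 library. With the Glycam1 side as a term, which in effect sets the libraries with both cytokines against IL-33 library 3, 1 of the 9 passed, Lck. In that fit the adjusted p was 0.255 for Cd3g and 0.137 for Themis.

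The interaction asks whether the change with both cytokines differs from the sum of the single changes on the log2 scale. By edgeR 0 of the 9 passed, against 2.35% of genes tested (1.31% as lower), and 2 had an unadjusted p under 0.05. These were Cd3g, with an interaction of -0.93 ± 0.258 and an adjusted p of 0.0565, and Themis, with -0.68 ± 0.231 and 0.12. Both estimates were negative: with vehicle, IL-25, IL-33 and both, Cd3g had mean levels of 311, 288, 338 and 173 CPM, and Themis of 177, 126, 215 and 99.5 CPM. DESeq2 called Cd3g, with an adjusted p of 0.0267, and limma-voom called 0 of the 9. Without IL-33 library 3 edgeR called both, with 0.00279 for Cd3g and 0.00186 for Themis. Calls rose over all genes as well in that fit, to 701 of 9041 from 208 of 8850. With the Glycam1 side as a term the estimates of Cd3g and Themis both turned, to 0.12 and 0.69, with neither passing, so that the interaction was not settled by these libraries.

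In ST2+ cells the question was how IL-33 acted on the population sorted by its receptor. Of the 8 genes that passed the filter on low counts, 3 fell with IL-33, all of them also among those lowered by both cytokines in IL25R+ cells: Cd3g, Lck and Lat. Among the 7626 genes tested 16.5% passed, and 8.03% as lower. Lat was at 469.5, 565, 523 and 509.8 CPM with vehicle and at 207, 196, 289 and 195 CPM with IL-33, a log2 fold change of -1.13 ± 0.218 (edgeR adjusted p 0.00665). Lck was at 109, 149, 209 and 70.2 CPM with vehicle and at 23.2, 24.4, 66.9 and 28.6 CPM with IL-33 (-1.82 ± 0.43, edgeR adjusted p 0.016). Cd3g was at 99.8, 81.8, 50.6 and 51.2 CPM with vehicle and at 18.4, 27.0, 25.8 and 11.6 CPM with IL-33 (-1.69 ± 0.379, edgeR adjusted p 0.0126). Every IL-33 library was below every vehicle library in these 3 genes. Cd3e was the fourth gene without overlap, at 14.6, 13.01, 28.7 and 12.4 CPM against 8.09, 0.842, 11.1 and 8.62 CPM, and did not pass (-1.13 ± 0.487, edgeR adjusted p 0.135). No overlap with the IL-33 group lower was found in 13.7% of all genes tested.

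Zap70, the gene with the higher level in ST2+ cells, did not pass. It was at 425, 325, 251 and 486 CPM with vehicle and at 378, 376, 310.2 and 403 CPM with IL-33, with overlapping groups and a log2 fold change of 0.069 ± 0.24 (edgeR adjusted p 0.877). Cd247 was at 16.8, 27.9, 75.9 and 14.6 CPM against 17.5, 15.2, 31.9 and 17.8 CPM, also overlapping (-0.57 ± 0.527). Cd3d had 4 to 25 counts per vehicle library and 6 to 21 per IL-33 library (-1.42 ± 0.55, edgeR adjusted p 0.101), and passed at 0.0334 without IL-33 library 2. Lcp2 (-0.59 ± 0.537) did not pass. Themis was filtered out at 0 to 7 counts per library. Lck had an adjusted p of 0.0551 without vehicle library 2, and Cd3g and Lat passed without any 1 library. Within the deeper replicates 1 and 4 alone 3 of the genes passed, as did 3364 of all 8985 genes tested. Within replicates 2 and 3 alone 0 did, where 31 of all 6571 genes tested passed, so few calls of any kind were made there. The log2 fold changes in replicates 2 and 3 were -1.09 for Cd3g, -1.80 for Lck and -0.96 for Lat. In the same libraries Dntt was at 11.2, 63.2, 59.0 and 9.87 CPM with vehicle and at 1.97, 5.90, 29.5 and 11.6 CPM with IL-33, with overlapping groups and no call (-1.41 ± 0.837, edgeR adjusted p 0.276). The sum of the T cell and thymocyte list was 51.5 to 165 CPM with vehicle and 53.1 to 107 CPM with IL-33. Its part in the lower levels of Cd3g, Lck and Lat was not tested.

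The effect of IL-33 was then compared between the populations in 1 fit of all 20 libraries with 8964 genes tested. It was more negative in ST2+ cells for 4 of the 9 genes, while 11.5% of all genes differed and 6.85% in that direction. The difference of log2 fold changes, ST2+ minus IL25R+, was -1.90 ± 0.452 for Lck (edgeR adjusted p 0.00916), -1.85 ± 0.413 for Cd3g (0.00592), -1.0 ± 0.243 for Lat (0.0106) and -1.26 ± 0.401 for Cd3e (0.044). Cd3e missed the threshold in most of the fits without 1 library, with adjusted p between 0.00595 and 0.117 over all alternatives. The fit of all libraries shares 1 spread per gene over both populations, although replicates varied more in ST2+ cells. The SE of 0.401 for Cd3e was below the 0.487 of its IL-33 change within ST2+ cells, which did not pass. Zap70 (0.33 ± 0.365) and Cd247 (-0.45 ± 0.512) did not pass, nor did Cd3d (-0.95 ± 0.465), Themis (-1.56 ± 0.962) or Lcp2 (-1.24 ± 0.617). With the Glycam1 side as a term Lck alone passed.

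The same libraries were read for other genes of the pathway, in 4 further lists, which share no gene with the 9. With both cytokines in IL25R+ cells 6.67% of all genes tested passed as lower and 15.6% in either direction, and with IL-25 alone 5.9% as lower. Among 19 other proximal kinases and adaptors tested, 4 fell with both cytokines: Tec, a kinase that acts on phospholipase C (log2 fold change -0.88 ± 0.115), Grap2, the adaptor that joins Lcp2 to Lat (-0.76 ± 0.151), Trat1, which stabilises the receptor complex (-0.69 ± 0.191), and Ptprc, the CD45 phosphatase that activates Lck (-0.38 ± 0.12). With IL-25 alone also 4 fell, among them Tec (-0.68 ± 0.115) and Trat1 (-0.99 ± 0.198). Of 16 negative regulators, 5 fell and 1 rose with both cytokines. Dgka, which removes diacylglycerol (-0.71 ± 0.121), Ptpn22, a phosphatase that acts on Lck and Zap70 (-0.66 ± 0.154), and Sla2, an adaptor that lowers receptor levels (-0.51 ± 0.127), were among those that fell, and Ptpn6, the SHP-1 phosphatase, was the one that rose (0.53 ± 0.128). In the calcium and NFAT list 4 of 13 fell with both cytokines: Orai2 (-0.67 ± 0.132), a calcium channel subunit, Itpr2 (-0.81 ± 0.166) and Itpr1 (-0.57 ± 0.168), which release stored calcium, and Stim1 (-0.47 ± 0.136), the sensor of stored calcium. In the protein kinase C and Ras list 2 of 15 fell, Rasgrp1, which loads Ras downstream of diacylglycerol (-1.13 ± 0.165, edgeR adjusted p 5.29e-05), and Rasal3, which inactivates it (-0.40 ± 0.118). Of the 4 lists, this last one lay nearest to the share of lower calls among all genes. With IL-33 alone in IL25R+ cells edgeR, DESeq2 and limma-voom called 0 genes in each of the 4 lists, and at an unadjusted p under 0.05 edgeR gave 5 proximal genes, 1 negative regulator, 0 calcium and NFAT genes and 3 of the protein kinase C and Ras list.

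In ST2+ cells, where 8.03% of all genes tested passed as lower and 16.5% in either direction, IL-33 lowered 4 of 17 proximal genes, among them Grap2 (-1.69 ± 0.366), Sh2d2a (-0.91 ± 0.236) and Skap1 (-0.77 ± 0.224), all adaptors. Of 14 negative regulators 6 fell, with Sla2 (-2.15 ± 0.284), Lax1 (-2.14 ± 0.398), a transmembrane adaptor related to Lat in function, and Dgka (-1.43 ± 0.228) at the front. Of 14 calcium and NFAT genes 4 fell: Nfatc2 (-0.96 ± 0.253), a transcription factor that calcineurin activates, Ppp3ca (-0.95 ± 0.279), the catalytic subunit of calcineurin, Orai2 (-1.13 ± 0.327) and Itpr2 (-0.80 ± 0.24). Of 13 protein kinase C and Ras genes 4 fell and 1 rose. Malt1, a protease that acts in NF-kappaB signalling, changed by -2.42 ± 0.441, Rasgrp1 by -1.89 ± 0.397, Prkcq, the protein kinase C isoform of T cell signalling, by -1.22 ± 0.302 and Rasal3 by -1.06 ± 0.218. The median log2 fold change was -0.77 for the proximal list, -0.74 for the negative regulators, -0.33 for the calcium and NFAT list and -0.26 for the protein kinase C and Ras list, against -1.13 for the 8 tested genes described here and 0.0014 over all genes tested. The difference between populations passed for Sla2 (-1.92 ± 0.281), Malt1 (-2.38 ± 0.475), Rasgrp1 (-1.83 ± 0.423) and Txk (-2.96 ± 0.47), a Tec family kinase.

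**Figure D3:**
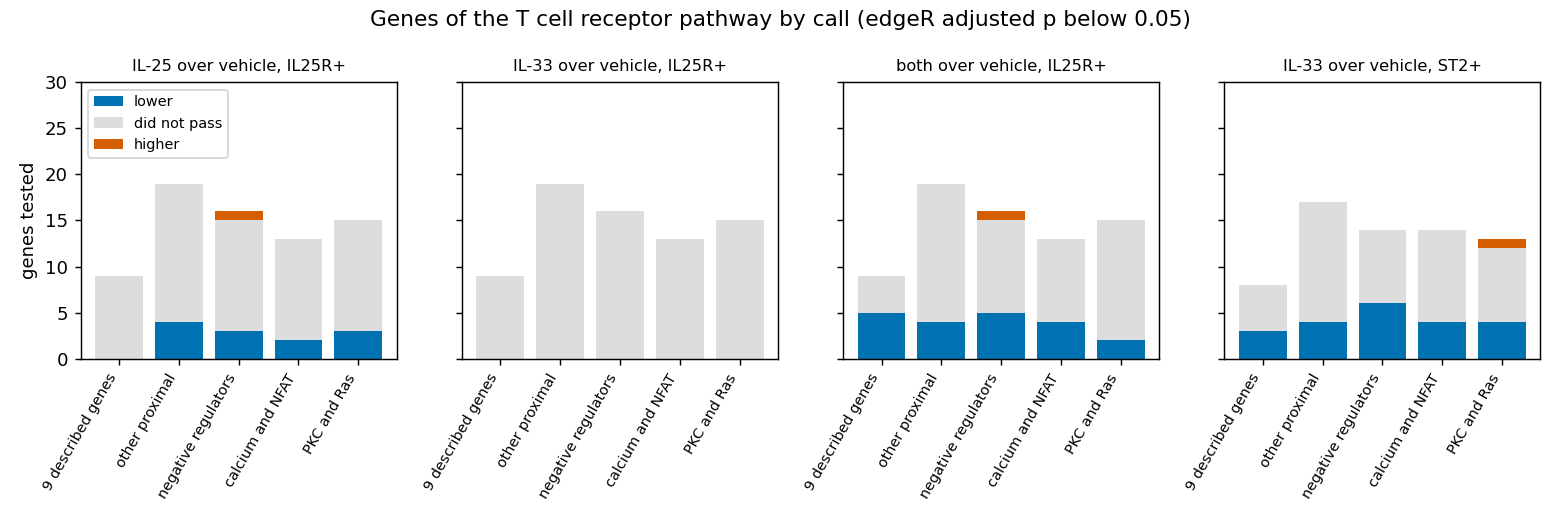
Number of genes tested in each of 5 lists, stacked by call (lower, not passing, higher; edgeR adjusted p under 0.05), for 4 comparisons. IL-33 in IL25R+ cells has no call in any list, and both cytokines lowered 5 of the 9 genes described.

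Listed markers of other lymphocytes moved in part with the same treatments. The summed T cell and thymocyte markers in IL25R+ cells were at 1174 to 1221 CPM with vehicle, 806 to 845 CPM with IL-25, 973 to 1355 CPM with IL-33 and 844 to 898 CPM with both. This order follows Dntt, which was at 299.7 to 342 CPM with IL-25 and 310.5 to 359 CPM with both, so it was as low with IL-25 alone as with both (log2 fold change between them -0.06 ± 0.129, edgeR adjusted p 0.861). Cd8b1 did not pass in any comparison made, at 105 to 167 CPM over the 12 libraries. The summed NK cell list (2 of 7 genes in the table, chiefly Gzma) was at 275 to 291 CPM with vehicle, 129.9 to 154 CPM with IL-25, 185 to 300.4 CPM with IL-33 and 99.4 to 128 CPM with both. The summed B cell list (3 of 5 genes) was at 157 to 233, 216 to 296, 138 to 189 and 186 to 221 CPM in the same order. Their part in the levels of the 9 genes was not tested.

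**Figure D4:**
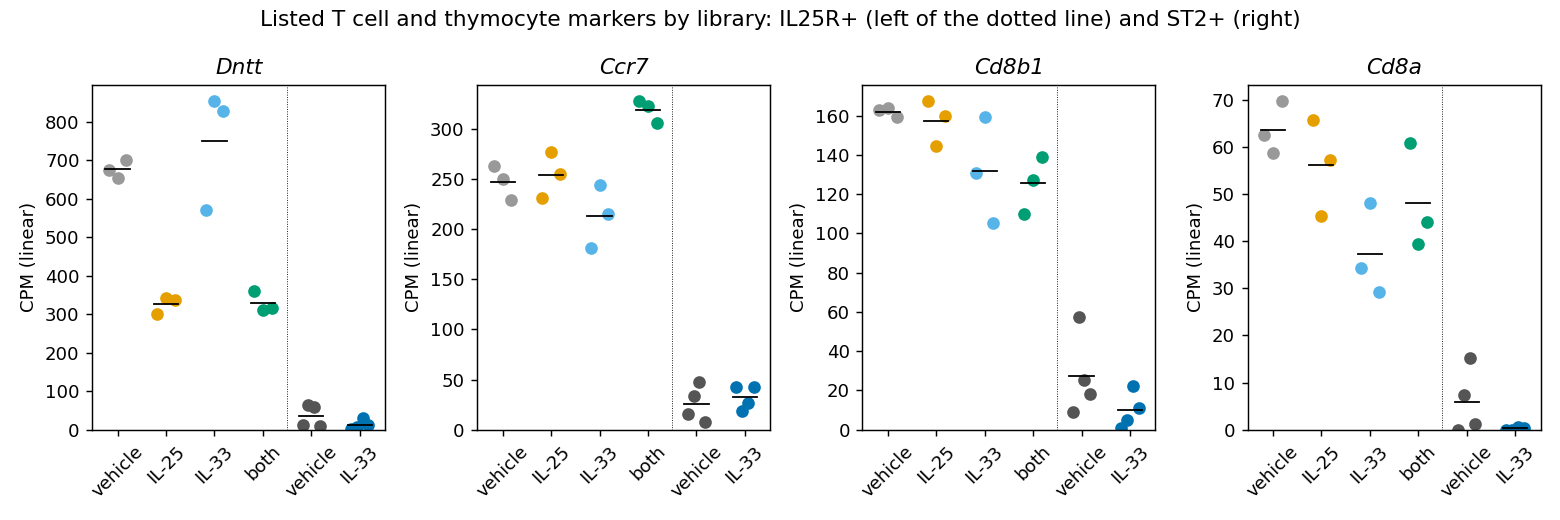
Level of Dntt, Ccr7, Cd8b1 and Cd8a in every library, in CPM on a linear axis from 0, with points for libraries and a line for the group mean (IL25R+ left of the dotted line, ST2+ right). Dntt stands at 653 to 700.2 CPM with vehicle in IL25R+ cells and at 299.7 to 342 CPM with IL-25, and all 4 markers are lower in ST2+ cells.

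Across the 12 IL25R+ libraries the 9 genes did not vary as 1 block. On log2(CPM + 1), Pearson's r was 0.866 for Lck with Lat, 0.862 for Cd247 with Themis and 0.841 for Cd3g with Themis, but 0.598 for the divergent neighbours Cd3d and Cd3g and -0.194 for Cd3d with Cd3e. Zap70 was near 0 with Cd3g (-0.00426) and Cd247 (0.00122). These values describe libraries that share treatments and scaling, and low counts blur those of Zap70 and Lcp2. Among 7708 genes with a mean of at least 10 CPM, the closest to Cd3g were Clec12a (0.934), Fryl (0.93) and Stard3nl (0.919). The closest to Lck were Macroh2a1 (0.971), Dap and Chd3 (both 0.95), and the closest to Themis were Clec12a (0.962), Stk4 (0.958) and Vamp2 (0.955).

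The authors' deposited table, made with DESeq2, was set beside these calls. At its adjusted p under 0.05 it lists Cd3d, Cd3g, Lck, Lat and Themis for vehicle against both cytokines, Cd3g for IL-25 against both, and Cd3g, Lck and Themis for IL-33 against both. For IL-25 against IL-33, a comparison not fitted here, the authors' deposited table gives a log2 fold change of IL-25 over IL-33 of -0.59 for Themis (adjusted p 0.0192) and -1.53 for Lcp2 (0.0427). The authors' deposited table for ST2+ cells lists Cd3g, Lck and Lat.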

How the data were processed

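Bulk MARS-seq of 20 libraries was analysed from 2 tables, 1 per population. The authors deposited whole-number counts per gene and library, log2 fold changes and adjusted p-values. Per the submitters' processing notes the tools were bcl2fastq, cutadapt, STAR 2.5.2b, HTSeq and DESeq2, with build mm10. The annotation, the use of strand, the filter on listed genes and whether reads or molecular identifiers were counted are not given in the sources used here. Labels placed every library's columns, and 0 columns were unmapped. The deposited log2 values and adjusted p-values of the authors were used for 1 check alone.

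CPM is the count over the library's total in its table. Tests used edgeR 4.0.16 (filterByExpr with minimum count 10, minimum total 15 and minimum proportion 0.7; TMM; quasi-likelihood test; Benjamini-Hochberg over all genes of a comparison at 0.05) with 1 coefficient per group, and gave 8 comparisons. The fits held 8850 genes (IL25R+), 7626 (ST2+) and 8964 (all 20 libraries). On simulated data with changes of log2 2 the test recovered 96.9% for IL-25 and 93% for both cytokines. It recovered 84.9% for IL-33 in ST2+ cells and 61.2% for the difference between populations. At log2 1 it recovered 67.3%, 62%, 18.8% and 4.17% in the same order, and at log2 0.5 it recovered 12.2%, 20.4%, 0% and 0%. Alternatives were DESeq2 1.42.0, limma-voom (limma 3.58.1), DESeq2 size factors, other filters, the replicate block, the compared groups alone, the Glycam1 side as a term and each library left out. Library totals alone, the ST2+ replicates 1 and 4 or 2 and 3 alone and, for levels with vehicle, TMM over both tables were added after seeing the data.

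The 9 genes and the lists were chosen with earlier results of these data known. From each pathway list up to 4 genes per comparison with the lowest adjusted p and a mean of at least 10 CPM could be named, and the text names a part of them. For the 3 of the 9 genes passing most often, the 3 genes of highest Pearson r are given. Of the list of TCR constant chains and co-receptors 3 of 10 genes were analysed, the co-receptors Cd4, Cd8a and Cd8b1 alone; at most 2 of them passed the filter on low counts, and edgeR called 0 in each comparison and at most 1 at an unadjusted p under 0.05; DESeq2 called 1 for the difference between populations. Positions come from GENCODE (mm10) and promoters from RefSeq (GRCm38.p6).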

Additional observations from a re-analysis of the deposited data

Results flagged for a closer look

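Single libraries lay far from the rest of their group in 4 of the 18 groups of 4 ST2+ libraries looked at (9 genes, 2 groups). Chance alone picks about 1 in 20 such groups when they are independent. The 9 genes were read in the same libraries, so the 4 of 18 cannot be weighed against that share. Cd3e was highest in vehicle replicate 3, at 28.7 CPM, where the other 3 libraries were at 12.4 to 14.6 CPM. In the IL-33 group replicate 3 was the highest library for 3 genes: Cd247 at 31.9 CPM, against 15.2 to 17.8 CPM in the others, Lck at 66.9 CPM, against 23.2 to 28.6 CPM, and Lat at 289 CPM, against 195 to 207 CPM. The listed thymocyte genes Dntt, at 29.5 CPM, and Cd8b1, at 22.1 CPM, were highest in that same library. Their part in these levels was not tested.

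The IL-33 effect differed between the populations, by the test of the difference in 1 fit of all 20 libraries, for Lck (-1.90), Cd3g (-1.85), Cd3e (-1.26) and Lat (-1.0 on the log2 scale, ST2+ minus IL25R+). Lck was at 134 ± 59.3 CPM with vehicle and 35.8 ± 20.9 CPM with IL-33 in ST2+ cells (SD, n = 4), and at 761 ± 43.3 and 841 ± 149 CPM in IL25R+ cells (SD, n = 3).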

How the results depend on the processing

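Counts of the 9 genes that passed were within 1.5 times of the reported ones in most alternatives, with these exceptions. With library totals alone 4 passed for IL-25 over vehicle in place of 0. With the Glycam1 side as a term 2 passed for IL-25, 1 for IL-33 over vehicle in IL25R+ cells in place of 0, 0 for both over IL-25 in place of 1, 1 for both over IL-33 in place of 4 and 1 for the difference between populations in place of 4. The side term is set by the IL-33 group of IL25R+ cells alone, the only group with libraries on both sides. These counts therefore rest on IL-33 library 3 and do not separate treatment from side. In the compared groups alone 1 passed for IL-25 and 2 for both over IL-25. For the interaction DESeq2 and the replicate block each gave 1 in place of 0. In ST2+ replicates 2 and 3 alone 0 passed in place of 3. Leaving out 1 library gave 0 to 1 for IL-25, 0 to 1 for IL-33 in IL25R+ cells, 3 to 5 for both over vehicle, 0 to 2 for both over IL-25, 3 to 4 for both over IL-33, 0 to 2 for the interaction, 2 to 4 for IL-33 in ST2+ cells and 3 to 5 for the difference.

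Effects that turned direction passed in neither fit. With library totals alone, IL-25 over vehicle turned for Cd3e (-0.13) and Cd3g (-0.11), and Zap70 in ST2+ cells (-0.03). With the Glycam1 side as a term the values were -0.54 (Cd3g), 0.073 (Lck) and 0.29 (Zap70) for IL-25; -0.32 (Cd3g), -0.29 (Cd247), 0.26 (Zap70) and -0.31 (Themis) for IL-33; 0.25 (Cd3d), 0.30 (Cd247), -0.65 (Zap70) and 0.38 (Themis) for both over IL-25; 0.15 (Cd3d) and 0.04 (Cd247) for both over IL-33; 0.12 (Cd3g), 0.59 (Cd247), 0.061 (Lat), -0.91 (Zap70) and 0.69 (Themis) for the interaction; and -0.15 (Zap70) for the difference. In ST2+ replicates 1 and 4 alone Cd247 was at 0.16 and Zap70 at -0.24. Leaving out 1 library gave ranges that spanned 0: for IL-25, Cd3e -0.0033 to 0.11 and Cd3g -0.20 to 0.22; for IL-33 in IL25R+ cells, Cd247 -0.10 to 0.17 and Cd3g -0.026 to 0.29; for both over IL-25, Zap70 -0.052 to 0.27; for both over IL-33, Zap70 -0.31 to 0.17; for the interaction, Lat -0.11 to 0.0015 and Lcp2 -0.41 to 0.21; in ST2+ cells, Cd247 -0.85 to 0.22 and Zap70 -0.061 to 0.26; and for the difference, Cd247 -0.77 to 0.25.

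Over all genes, counts that moved by more than 1.5 times were, for IL-33 over vehicle in IL25R+ cells, 21 against 2 without a filter, 8 at 10 CPM, 36 by DESeq2, 10 by limma-voom, 212 with the side as a term, 1 in the compared groups alone and 0 to 151 without 1 library. With the side as a term IL-25 had 645 in place of 1325, both over IL-25 had 5 in place of 278, both over IL-33 had 649 in place of 1519, the interaction had 14 in place of 208 and the difference had 419 in place of 1032. The compared groups alone gave 870 for both over IL-25 and 982 for both over IL-33. IL-33 in ST2+ cells gave 1262, against 3364 in replicates 1 and 4 and 31 in replicates 2 and 3. Without 1 library the range was 832 to 1718 for IL-25, 779 to 1738 for both over vehicle (1384 in all libraries), 80 to 620 for both over IL-25, 933 to 1928 for both over IL-33, 45 to 701 for the interaction, 619 to 2581 for IL-33 in ST2+ cells and 712 to 2002 for the difference. With library totals alone, the share of higher genes among the calls went from 57.4% to 37.6% for both over vehicle, 43.2% to 65.7% for both over IL-25, 54.1% to 33.5% for both over IL-33, 44.2% to 60.5% for the interaction, 51.5% to 40.8% in ST2+ cells and 40.5% to 24.8% for the difference, and the median of all genes moved to -0.142 for both over vehicle, -0.145 for both over IL-33 and -0.165 for the difference. Correlations of same-numbered libraries were -0.124 to 0.125 in IL25R+ cells, which gives little sign of pairing there. In ST2+ cells they were 0.0226 to 0.255. For ST2+ replicates 1 (0.199) and 3 (0.255) the same-numbered IL-33 library was the one most like the vehicle library, and for replicates 2 and 4 it was not. Whether ST2+ replicates were paired cannot be told from these values. With the replicate block the count for both over IL-33 was 3, and that of the interaction was 1. The cause of these shifts was not tested. Counts under about 40 per library limited Zap70 and Lcp2 in IL25R+ cells.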

Other observations

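Syk, the second kinase of the Zap70 family, and Fcer1g, an adaptor with the same tyrosine motif as the CD3 chains, were in none of the lists and were chosen after their values were seen. Syk rose in IL25R+ cells with IL-25, from 34.8 ± 2.09 to 73.0 ± 9.60 CPM (SD, n = 3; log2 fold change 1.25 ± 0.165, edgeR adjusted p 1.89e-05), and with both cytokines, to 88.1 ± 5.80 CPM (1.46 ± 0.162, edgeR adjusted p 1.43e-06). With IL-33 alone Syk was at 40.4 ± 3.40 CPM and did not pass (edgeR adjusted p 0.699). In ST2+ cells it was at 5.98 ± 3.03 CPM with vehicle and 4.85 ± 2.79 CPM with IL-33 (SD, n = 4), without a call. The order of the populations in Syk was thus opposite to that in Zap70, which was at 30.6 ± 7.59 CPM with vehicle in IL25R+ cells and at 372 ± 104 CPM in ST2+ cells. Fcer1g also rose with IL-25 (log2 fold change 0.82 ± 0.233, edgeR adjusted p 0.0191) and with both cytokines (0.74 ± 0.233, edgeR adjusted p 0.0327), at 18.7 to 23.2 CPM with vehicle and 26.7 to 42.1 CPM with IL-25. Cd79b, a B cell receptor chain with such a motif, rose with IL-25 as well (0.58 ± 0.147, edgeR adjusted p 0.0101).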
